A study of Homo sapiens with 12 samples.

Results

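The 10 genes described here encode NODAL, its relatives GDF3, INHBA, BMP4 and BMP7, the NODAL co-receptor TDGF1, and the secreted inhibitors LEFTY1, LEFTY2, CER1 and FST. They were chosen by gene name, as the transcript clusters (probe groups of the array) whose annotation lists 1 of them, and they make up 10 of the 33297 clusters in the table. Each gene had 1 cluster, and each of these clusters lists no other gene. TDGF1 is listed under its current symbol CRIPTO, and it did not share its cluster. RNA of NCCIT cells, a human embryonal carcinoma line, was hybridized to 12 Affymetrix Human Gene ST arrays, 2 for each of 6 siRNA conditions. The knockdowns were siEED, siRNF2, both at once (siEED+RNF2), siWDR5 and siSETD2. The control was a non-targeting siRNA, siNTC, whose arrays are labelled as a re-analysis. All cells, controls included, were transfected with siRNA, which lowers a transcript without removing the gene. The sources used here do not say whether the arrays of a condition came from separate cultures, so p-values measure only the spread between these arrays.

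WDR5 is a subunit of the complexes that methylate histone H3 at active promoters, EED is a core subunit of the repressive complex PRC2, RNF2 is the ubiquitin ligase of the repressive complex PRC1, and SETD2 methylates histone H3 along transcribed genes. WDR5 RNA was lower by 1.21 log2 units in siWDR5, SETD2 RNA fell by 1.75 in siSETD2, and EED RNA fell by 1.29 in siEED and by 1.61 in siEED+RNF2, each against siNTC. EED RNA also fell by 0.66 in siRNF2, and it was lower, under the fold threshold of 1.5 used here, by 0.54 in siWDR5 (adjusted p = 0.00234) and by 0.42 in siSETD2 (0.00830, both limma). Also under that threshold, SETD2 RNA differed by -0.51 in siEED+RNF2 (limma adjusted p = 0.000343) and -0.29 in siRNF2 (0.00721). WDR5 RNA was higher, again under it, by 0.56 in siEED+RNF2 (limma adjusted p = 0.000312) and 0.37 in siSETD2 (0.00499). It was higher by 0.34 in siRNF2 (0.00522) and 0.31 in siEED (0.0107, both limma). RNF2 RNA was not analysed here, so the knockdown of RNF2 was not checked on these arrays. The paper reports that siRNF2 lowered its target RNA by QRT-PCR and ubiquitinated histone H2A by western blot. Replicate arrays correlated at 0.9960 to 0.9970 across all clusters, above the 0.9952 of the closest arrays of different conditions. All 9 embryonal carcinoma markers measured, of 11 listed, lay above the median of every array, and none of 7 yolk sac and definitive endoderm markers did. POU5F1 and NANOG were listed but had no cluster that lists them alone, so they were not measured here.

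NODAL and activin, a dimer of INHBA products, bind activin receptors and activate SMAD2 and SMAD3, which act with the forkhead factor FOXH1. GDF3 and NODAL need TDGF1, a membrane-anchored protein, as co-receptor. LEFTY1 and LEFTY2 block NODAL and are induced by it, CER1 binds NODAL and BMPs, and FST traps activin. BMP4 and BMP7 signal through their own receptors to SMAD1, SMAD5 and SMAD9. In pluripotent cells the NODAL and activin branch is known to help to keep the undifferentiated state, and TDGF1, GDF3 and LEFTY2 are known as genes of that state.

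Promoter windows are shown for FST and GDF3, the called genes that had a window, and for TDGF1, whose upstream window held the only match to the ATF4 element beside that of GDF3. They come from RefSeq (GRCh38.p14) and run 5′ to 3′ on the gene's strand, with 250 bases before the start site and 50 after it, 300 in all. The FST window lies at chr5:53480379-53480678 on the plus strand, and its capitals mark CG dinucleotides.
FST: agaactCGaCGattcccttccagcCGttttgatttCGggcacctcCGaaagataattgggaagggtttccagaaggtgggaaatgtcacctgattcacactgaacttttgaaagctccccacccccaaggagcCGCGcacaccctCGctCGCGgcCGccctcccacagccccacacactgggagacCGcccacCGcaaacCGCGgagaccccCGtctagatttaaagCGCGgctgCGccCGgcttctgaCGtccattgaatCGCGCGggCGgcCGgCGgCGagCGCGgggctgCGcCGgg
The GDF3 window lies at chr12:7695726-7696025 on the minus strand, and its capitals mark the match to the FOXH1 core TGTNNATT, on the opposite strand, and then the match to the ATF4 element TGATGNAA, also on the opposite strand.
GDF3: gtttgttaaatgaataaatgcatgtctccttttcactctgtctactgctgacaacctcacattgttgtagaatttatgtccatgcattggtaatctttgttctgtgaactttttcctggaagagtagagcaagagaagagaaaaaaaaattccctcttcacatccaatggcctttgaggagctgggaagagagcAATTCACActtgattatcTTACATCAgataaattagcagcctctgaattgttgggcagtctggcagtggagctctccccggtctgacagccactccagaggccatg
The upstream TDGF1 window lies at chr3:46574285-46574584 on the plus strand, and its capitals mark a match to the ATF4 element.
TDGF1: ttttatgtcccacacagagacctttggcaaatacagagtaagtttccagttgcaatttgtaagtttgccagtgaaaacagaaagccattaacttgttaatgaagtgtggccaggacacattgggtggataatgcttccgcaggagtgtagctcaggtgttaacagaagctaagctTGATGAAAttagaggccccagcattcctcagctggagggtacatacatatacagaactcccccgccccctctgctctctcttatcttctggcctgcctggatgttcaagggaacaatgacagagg
The FST window held 32 CG dinucleotides, as many as or more than in 82.8% of all 35116 windows, while the GDF3 window held 1 and this TDGF1 window 2, beside a median of 14 over all windows. Of the 10 genes, 7 had at least 1 window, with 10 windows in all, and LEFTY1, LEFTY2 and BMP7 had none. The motifs were searched on both strands and do not overlap each other in these windows. The FOXH1 core was found in 2 of the 10 windows (GDF3 and CER1) and in 11% of all windows, and the ATF4 element in 2 (GDF3 and TDGF1) and in 3.62%. The full SMAD element GTCTAGAC was in none of the 10 windows and in 0.202% of all, and its short form CAGAC was in 7, beside 45.3% of all. A match describes letters only.

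Levels are log2 values as deposited, on a scale where the array medians ran from 6.29 to 6.36. They are compared between conditions for 1 gene, and not between genes, whose probes differ. NODAL and CER1 lay below the lower quartile of clusters on all 12 arrays, and LEFTY1 and INHBA lay below the array median on all 12. TDGF1 and GDF3 lay above 95.5% of clusters at their lowest. A gene is called here at a Benjamini-Hochberg adjusted p under 0.05 over all 33297 clusters, from limma's moderated linear model, together with a fold change of at least 1.5. Errors are standard errors of the fit, with n = 2 arrays per condition.

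**Figure D1:**
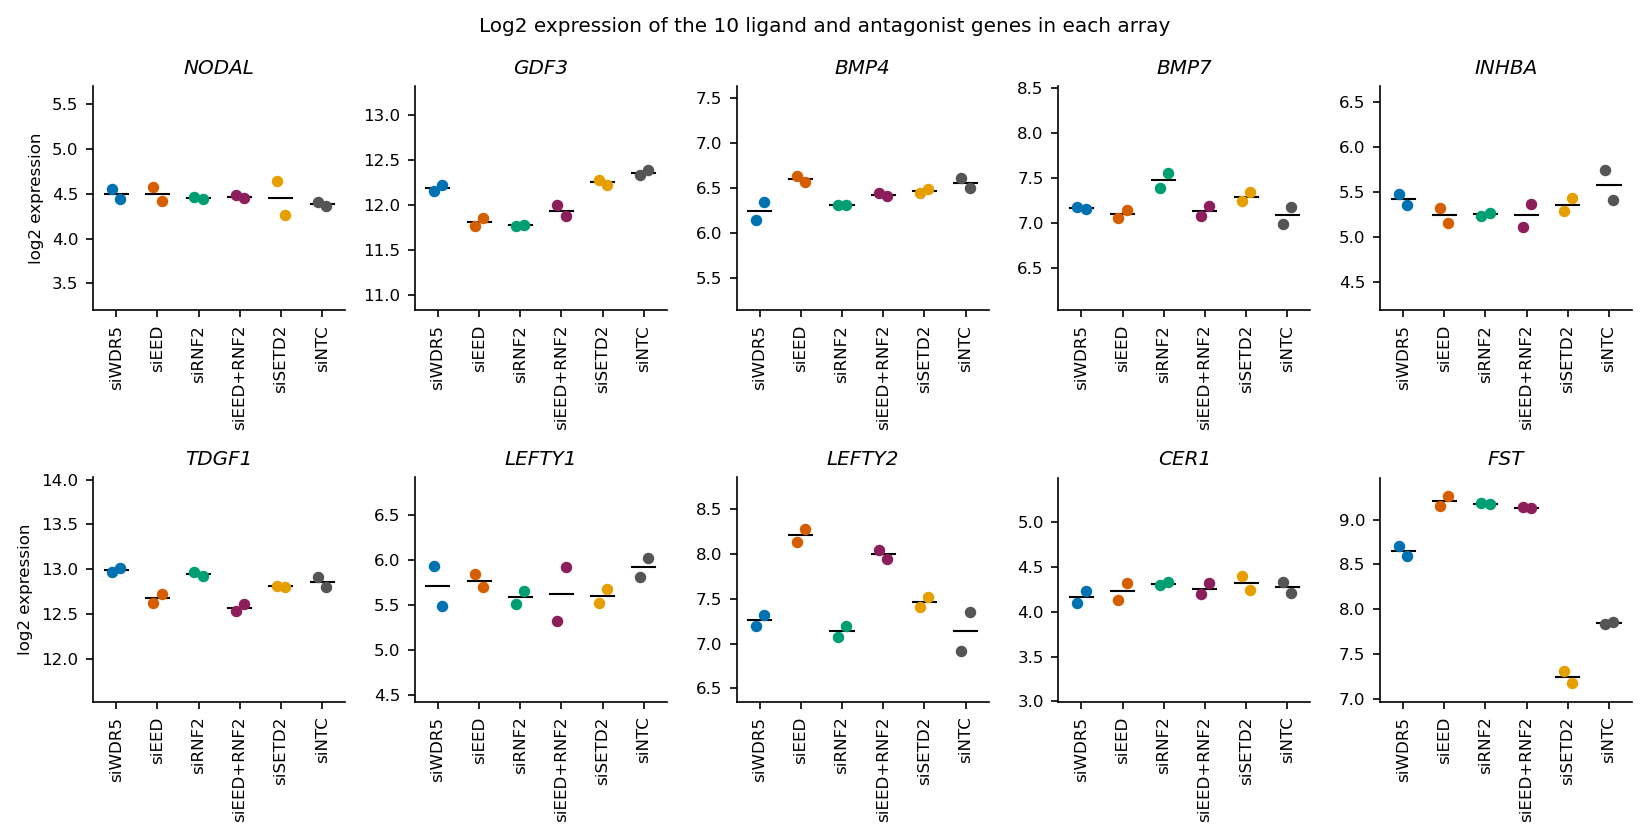
Log2 expression (y axis, each panel spanning the same range of log2 units) of the 10 genes in each of the 12 arrays, by condition on the x axis. Points are arrays and bars are condition means. FST was highest in siEED, siRNF2 and siEED+RNF2, with arrays from 9.13 to 9.26, and LEFTY2 was highest in siEED and siEED+RNF2, with arrays from 7.95 to 8.28.

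The counts of called genes were small in every knockdown. In siWDR5, 1 of the 10 genes was called higher (FST), beside 2.86% of all clusters called higher and 3.29% lower. In siEED, 2 were called higher (FST and LEFTY2), beside 3.15% of all clusters higher and 3.27% lower. In siRNF2, 1 was called higher (FST) and 1 lower (GDF3), beside 4.82% higher and 5.55% lower. In siEED+RNF2, 2 were called higher (FST and LEFTY2), beside 4.77% higher and 6.78% lower. In siSETD2, 1 was called lower (FST), beside 2.61% higher and 2.90% lower. FST was thus called in all 5 knockdowns, LEFTY2 in 2, GDF3 in 1 and the other 7 genes in none. The median log2 fold change of the 10 genes was -0.02 in siEED, -0.07 in siEED+RNF2, 0.02 in siRNF2, -0.01 in siWDR5 and -0.07 in siSETD2, beside -0.06, -0.05, -0.08, -0.04 and -0.03 for all clusters in the same order. The 5 comparisons share the same 2 siNTC arrays. The balance of calls over all clusters depended on the scaling. With arrays centred on the clusters that list a gene, 31.5% of all calls were higher in siEED, against 49.1% on the deposited values, and the shares were 27.2% against 46.5% in siRNF2 and 29.9% against 41.3% in siEED+RNF2.

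**Figure D2:**
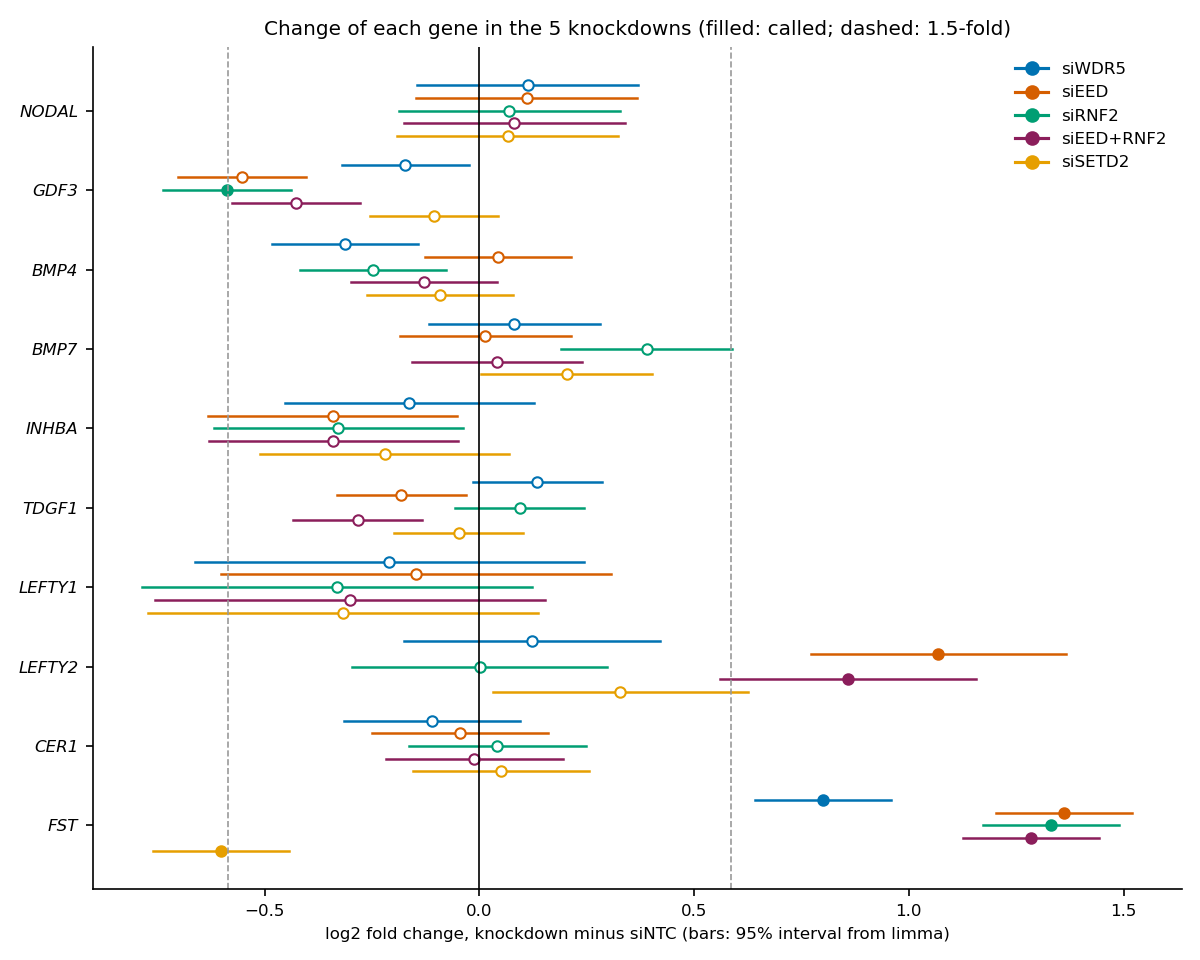
Log2 fold change of each gene (rows) in each knockdown minus siNTC (x axis), with the 95% interval from limma; filled points were called and dashed lines mark a fold of 1.5. FST had 4 filled points above 0 and 1 below, LEFTY2 had 2 above 0, and GDF3 had 1 below.

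Of the inhibitors, FST, the activin-binding protein, changed in every knockdown. Its log2 values were 9.14 and 9.13 in siEED+RNF2, 9.16 and 9.26 in siEED, 9.18 and 9.17 in siRNF2, 8.70 and 8.59 in siWDR5, and 7.31 and 7.18 in siSETD2, against 7.84 and 7.86 in siNTC. No knockdown array overlapped the siNTC arrays, and the 3 conditions with a Polycomb knockdown were highest. FST was 2.57-fold higher in siEED (log2 1.36 ± 0.07, adjusted p = 8.05e-06), 2.52-fold in siRNF2 (1.33 ± 0.07, 4.97e-06) and 2.44-fold in siEED+RNF2 (1.28 ± 0.07, 4.4e-06). It was 1.74-fold higher in siWDR5 (0.80 ± 0.07, 0.000133) and 1.52-fold lower in siSETD2 (-0.60 ± 0.07, 0.000516). The siSETD2 call stood close to the fold threshold. It was lost without siSETD2 replicate 2, where the log2 fold change was -0.53, and when arrays were centred on the median of all clusters (-0.58).

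In the order of FST levels, siEED, siRNF2 and siEED+RNF2 came first and neighbours among them differed by 0.03 and 0.05 log2 units, with adjusted p of 0.88 and 0.78. The next step, siEED+RNF2 over siWDR5, was 0.48 (adjusted p = 0.00139) and under the fold threshold. The last steps, siWDR5 over siNTC and siNTC over siSETD2, were the called changes given above. Tested directly, FST was 1.40 ± 0.07 log2 units higher in siWDR5 than in siSETD2 (2.64-fold, adjusted p = 9.8e-06), where 2.49% of all clusters were called higher and 2.77% lower. FST was the only one of the 10 genes called in that contrast.

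Over the arrays with higher FST, the mean level of the 9 embryonal carcinoma markers, which do not include POU5F1 and NANOG, was lower. That mean ran from 11.33 to 11.37 in siEED, 11.24 to 11.27 in siEED+RNF2, 11.32 to 11.35 in siRNF2, 11.39 to 11.45 in siWDR5 and 11.74 to 11.75 in siSETD2, against 11.66 to 11.69 in siNTC. At most 3 of the 9 were called lower in a knockdown (siEED+RNF2), beside 6.78% of all clusters there. In siSETD2, 2 were called higher and 1 lower, beside 2.61% and 2.90% of all clusters. Before adjustment, limma p was under 0.05 for 8 lower and 0 higher markers in siEED, and 7 and 0 in siRNF2. These counts were 6 and 0 in siEED+RNF2, 5 and 1 in siWDR5, and 1 and 3 in siSETD2. The share of all clusters at that unadjusted level is not given here, so the counts are not set against it. All 9 markers stayed above the median of every array. Among 6 trophoblast markers, 1 was called higher in the 4 knockdowns where FST was higher, beside 2.86% to 4.82% of all clusters. That marker was TFAP2C, a transcription factor also known in germ cell tumours, with means of 9.79 in siEED, 10.29 in siEED+RNF2, 10.001 in siRNF2 and 9.79 in siWDR5, against 9.19 in siNTC, while the defining trophoblast marker CGA did not exceed 4.96 on any array. The median log2 fold change of the 6 was -0.06 in siEED, -0.10 in siEED+RNF2, -0.09 in siRNF2 and -0.15 in siWDR5. Before adjustment, limma p was under 0.05 for 1 higher gene in each of these knockdowns. It was under 0.05 for 2 lower genes in siEED, siEED+RNF2 and siWDR5 and for 1 in siRNF2. Other lists moved as well, in knockdowns with higher and with lower FST. The mean of 6 mesoderm markers ran from 5.84 to 5.88 in siEED, 5.91 to 5.99 in siEED+RNF2, 5.90 to 6.02 in siRNF2, 5.85 to 5.93 in siWDR5 and 5.65 to 5.75 in siSETD2, against 6.12 to 6.20 in siNTC. In each knockdown 1 or 2 of these 6 were called lower, beside 2.90% to 6.78% of all clusters. The called genes were HAND1 and KDR, a receptor of vascular endothelial growth factor, while TBXT, a defining marker, stayed between 5.41 and 5.69 on all arrays. The mean of 8 fibroblast and smooth muscle markers ran from 5.38 to 5.499 in siEED, 5.29 to 5.33 in siEED+RNF2, 5.003 to 5.07 in siRNF2, 5.07 to 5.09 in siWDR5 and 4.97 to 5.01 in siSETD2, against 5.53 to 5.54 in siNTC. The called gene of that list was ACTG2, a smooth muscle actin, with means of 7.82 in siEED+RNF2, 6.41 in siRNF2, 6.31 in siWDR5 and 5.78 in siSETD2, against 9.17 in siNTC, while DCN, a defining fibroblast marker, did not exceed 4.49. No yolk sac, definitive endoderm, neuroectoderm or blood cell marker was called by limma in a knockdown, and before adjustment p was under 0.05 for at most 3 genes of each of these lists in a knockdown. The part of these markers in the FST result was not tested.

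LEFTY2, the NODAL antagonist, was higher in the conditions that target EED. Its log2 values were 8.04 and 7.95 in siEED+RNF2, 8.13 and 8.28 in siEED, 7.08 and 7.20 in siRNF2, 7.20 and 7.32 in siWDR5, and 7.40 and 7.52 in siSETD2, against 6.92 and 7.35 in siNTC. The 4 arrays with EED siRNA stood above all 8 others, and the siNTC arrays lay further apart than those of any other condition. LEFTY2 was 2.10-fold higher in siEED (log2 1.07 ± 0.13, adjusted p = 0.000601) and 1.81-fold higher in siEED+RNF2 (0.86 ± 0.13, 0.00105). The differences from siNTC were 0.12 in siWDR5, 0.00 in siRNF2 (95% interval -0.30 to 0.30) and 0.33 in siSETD2 (adjusted p = 0.11), and none of these passed the test. Leaving out either siNTC array kept both calls, with values of 0.85 to 1.29 in siEED and 0.64 to 1.08 in siEED+RNF2 over all arrays left out.

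The difference between the EED and RNF2 conditions was tested itself. LEFTY2 was 1.07 ± 0.13 log2 units higher in siEED than in siRNF2 (adjusted p = 0.00426), where 0.550% of all clusters were called higher and 0.490% lower. It was 0.86 ± 0.13 higher in siEED+RNF2 than in siRNF2 (adjusted p = 0.00405), where 0.297% were called higher and 1.99% lower. In siWDR5 it was 0.95 ± 0.13 log2 units lower than in siEED (log2 fold change -0.95, adjusted p = 0.00251), where 0.880% were called higher and 1.61% lower. LEFTY2 was the only called gene of the 10 in each of these 3 contrasts. In the order of its levels, siEED and siEED+RNF2 differed by 0.21 (adjusted p = 0.411), the step down to siSETD2 was 0.53 (adjusted p = 0.015, under the fold threshold), and no step passed among siSETD2, siWDR5, siRNF2 and siNTC.

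LEFTY1, the paralog beside LEFTY2 on chromosome 1, did not follow it. Its values were 5.32 and 5.92 in siEED+RNF2, 5.84 and 5.70 in siEED, 5.51 and 5.66 in siRNF2, 5.93 and 5.49 in siWDR5, and 5.52 and 5.68 in siSETD2, against 5.82 and 6.02 in siNTC. Arrays of one condition differed by up to 0.60 log2 units, and the siNTC arrays overlapped those of siWDR5, siEED and siEED+RNF2. Its log2 fold changes ran from -0.33 to -0.15 with a standard error of 0.20, and the lowest adjusted p was 0.229 (limma). Probe sequences were not used here, so it was not tested whether the LEFTY1 and LEFTY2 clusters share signal.

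CER1, which binds NODAL and BMPs, stayed between 4.10 and 4.40 on all arrays. Its fold changes against siNTC ran from -0.11 to 0.05 on the log2 scale, and their 95% intervals lay within -0.31 and 0.26. At that dim level small changes of CER1 could not be resolved.

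Among the ligands, GDF3 was lower in the Polycomb knockdowns. Its values were 11.997 and 11.87 in siEED+RNF2, 11.77 and 11.85 in siEED, 11.77 and 11.78 in siRNF2, 12.15 and 12.23 in siWDR5, and 12.29 and 12.23 in siSETD2, against 12.34 and 12.39 in siNTC. All 10 knockdown arrays lay below both siNTC arrays, and the 6 arrays with EED or RNF2 siRNA lay below the other 6. GDF3 was 1.503-fold lower in siRNF2 (log2 -0.59 ± 0.07, adjusted p = 0.000212), which was called. It was also lower in siEED (-0.55 ± 0.07, 0.0005) and siEED+RNF2 (-0.43 ± 0.07, 0.00106), both under the fold threshold. The siRNF2 call rested on the threshold: without siRNF2 replicate 1 (-0.58), without siNTC replicate 2 (-0.56), after quantile normalization (-0.53) or with arrays centred on the median of all clusters (-0.53) the fold fell short.

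In the order of GDF3 levels, siNTC, siSETD2 and siWDR5 came first and neighbours did not pass the test, the step from siWDR5 down to siEED+RNF2 was 0.25 (adjusted p = 0.0239, under the fold threshold), and siEED+RNF2, siEED and siRNF2 did not differ beyond the test from their neighbours. GDF3 was 0.38 ± 0.07 log2 units higher in siWDR5 than in siEED (adjusted p = 0.00714), under the fold threshold.

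NODAL itself stayed between 4.26 and 4.64 on all arrays. Its fold changes ran from 0.07 to 0.11 on the log2 scale with 95% intervals from -0.19 to 0.37, and the lowest adjusted p was 0.507 (limma). INHBA, the activin subunit, stayed between 5.11 and 5.75. It was lower by 0.34, 0.33 and 0.34 log2 units in siEED, siRNF2 and siEED+RNF2, with adjusted p of 0.0793, 0.0757 and 0.0703, so that none passed, and the siNTC arrays at 5.75 and 5.41 differed by as much.

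BMP4 and BMP7 showed changes under the fold threshold. BMP4 had 6.14 and 6.34 in siWDR5 and 6.31 and 6.31 in siRNF2, against 6.61 and 6.51 in siNTC. Those differences were -0.31 ± 0.07 (adjusted p = 0.0154) and -0.25 ± 0.07 (0.0314). BMP4 was also lower in siWDR5 than in siEED (-0.36 ± 0.07, 0.0171). Against siNTC, in siEED, siEED+RNF2 and siSETD2 the differences were 0.04, -0.13 and -0.09 with none passing. BMP7 had 7.39 and 7.56 in siRNF2, against 6.99 and 7.18 in siNTC, a difference of 0.39 ± 0.09 (1.31-fold, adjusted p = 0.00856). BMP7 in the other knockdowns lay within 0.20 of siNTC with none passing. BMP7 was also lower in siEED+RNF2 than in siRNF2 (-0.35 ± 0.09, adjusted p = 0.0415) and lower in siEED than in siRNF2 (-0.38 ± 0.09, 0.0476). For NODAL, INHBA, BMP4, BMP7, LEFTY1 and CER1 no neighbours in the order of the 6 levels differed beyond the test.

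TDGF1, the co-receptor, was near the top of the array scale everywhere. Its values were 12.54 and 12.61 in siEED+RNF2, 12.62 and 12.73 in siEED, 12.98 and 12.93 in siRNF2, 12.98 and 13.01 in siWDR5, and 12.82 and 12.81 in siSETD2, against 12.92 and 12.80 in siNTC. The 4 arrays with EED siRNA were the lowest. TDGF1 was 1.22-fold lower in siEED+RNF2 than in siNTC (log2 -0.28 ± 0.07, adjusted p = 0.010) and 1.30-fold lower than in siRNF2 (-0.38 ± 0.07, 0.00803), both under the fold threshold. In siEED the difference from siNTC was -0.18 ± 0.07 (adjusted p = 0.0724). In siWDR5 it was 0.32 ± 0.07 higher than in siEED (0.0167). Its neighbouring levels did not differ beyond the test. CRIPTO3, a processed copy of the gene with its own cluster, was at 8.25 in siEED+RNF2 and 8.31 in siEED, against 8.60 in siNTC, with differences of -0.35 (adjusted p = 0.0217) and -0.29 (0.0544). It was not tested whether probes of these 2 clusters share signal.

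The design also asks whether the dual knockdown differs from the single ones. By the paper's methods, the dual transfection held both siRNA pools and more transfection reagent than a single one. Dose and target thus differ together in these comparisons and cannot be told apart. Against siEED, siEED+RNF2 had 0 of the 10 genes called by limma, and at an unadjusted p under 0.05 there were 0 higher and 1 lower (BMP4, -0.17), while 0.219% of all clusters were called higher and 2.31% lower. The interaction, which sets the dual knockdown against the sum of the single ones, was called for 2 genes, beside 4.21% of all clusters higher and 5.28% lower. The split of interaction calls also moved with the scaling, with 68.96% higher when arrays were centred on the clusters that list a gene, against 44.3% on the deposited values, and in siWDR5 against siEED the shares were 58.3% against 35.4%. FST changed by 1.28 log2 units in the dual knockdown, against 2.69 for the sum of the single ones (interaction -1.41 ± 0.10, adjusted p = 8.04e-05). GDF3 changed by -0.43, against -1.14 for that sum (0.71 ± 0.09, 0.00117). Both genes thus changed less in siEED+RNF2 than the single knockdowns added up on the log2 scale. For LEFTY2 the values were 0.86 and 1.07 (interaction -0.21, 95% interval -0.63 to 0.21, adjusted p = 0.461), and for the other 7 genes no interaction passed the test.

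**Figure D3:**
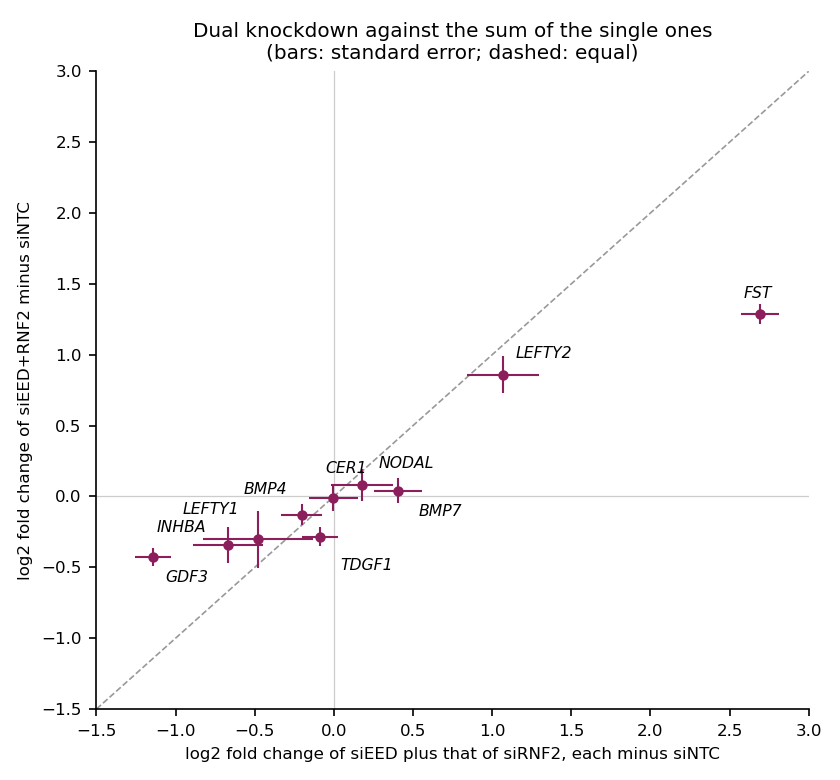
Log2 fold change of the 10 genes in siEED+RNF2 minus siNTC (y axis) against the sum of those of both single knockdowns (x axis); bars are standard errors and the dashed line marks equality. FST lies below the line at 1.28 against 2.69, GDF3 above it at -0.43 against -1.14, and LEFTY2 near it.

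The rest of the pathway is given by 8 lists, whose median log2 fold changes ran from -0.32 to 0.11 over the knockdowns, beside -0.08 to -0.03 for all clusters. A gene of these lists is said to fall or rise where it was called. Changes under the fold threshold are given only in part. Over all clusters, 2.61% to 4.82% were called higher and 2.90% to 6.78% lower in the 5 knockdowns. With lists this short, 1 call is not read as a result about its list. Counts at an unadjusted p are given without the share of all clusters at that level. Of 8 receptors and SMADs of the NODAL and activin branch, ACVR1C, a NODAL receptor, fell in siEED+RNF2 (-0.66 ± 0.12, adjusted p = 0.0032) and SMAD3 fell in siSETD2 (-0.85 ± 0.08, 0.00016), with no other call. Under the fold threshold, ACVR1C was also lower in siEED (-0.50, limma adjusted p = 0.0173), siSETD2 (-0.42, 0.0401) and siRNF2 (-0.38, 0.0420). SMAD3 was lower under it in siRNF2 (-0.42, limma adjusted p = 0.00332) and siEED+RNF2 (-0.27, 0.0255). Before adjustment, p was under 0.05 for 1 higher and 3 lower genes of this list in siEED, for 2 higher and 3 lower in siRNF2, and for 2 higher and 1 lower in siWDR5. None of 12 measured targets of this branch (of 14 listed) was called by limma in any knockdown. Before adjustment, p was under 0.05 for 2 higher and 1 lower target in siEED, 2 and 2 in siEED+RNF2, 2 and 2 in siRNF2, 2 and 2 in siWDR5, and 1 and 1 in siSETD2.

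Of 7 measured receptors and SMADs of the BMP branch, BMPR2, the type II BMP receptor, fell in siWDR5, siRNF2 and siEED+RNF2 (-0.65, -0.76 and -0.88, each ± 0.09), and ACVR1 fell in siSETD2 (-0.71 ± 0.08). Under the fold threshold, BMPR2 was also lower in siEED (-0.54, limma adjusted p = 0.00218) and siSETD2 (-0.53, 0.00273). ACVR1 was lower by less than that threshold in siWDR5 (-0.49, limma adjusted p = 0.00265), siRNF2 (-0.42, 0.00361) and siEED+RNF2 (-0.32, 0.0138). Without siWDR5 replicate 2 the siWDR5 value of BMPR2 was -0.58 and under the fold threshold. Of 13 BMP targets, 2 were called lower in siWDR5, siEED and siSETD2 and 1 in siRNF2 and siEED+RNF2, with none higher. Over all clusters, 2.90% to 6.78% were called lower. Unadjusted limma p was under 0.05 for 8 lower targets in siSETD2 and 5 in siWDR5. It was under 0.05 for 6 lower targets each in siEED+RNF2 and siEED, and for 4 in siRNF2. At most 2 targets were higher at that level in a knockdown. The median log2 fold change of the 13 was -0.32 in siSETD2, beside -0.03 for all clusters. In the other knockdowns it ran from -0.12 to -0.07, beside -0.08 to -0.04. ID3, an inhibitor of bHLH factors, had 9.10 and 9.10 in siEED, against 10.02 and 10.18 in siNTC (-1.002 ± 0.08, adjusted p = 5.5e-05). It was also lower in siRNF2 (-0.81), siEED+RNF2 (-0.73) and siSETD2 (-0.72), and under the fold threshold in siWDR5 (-0.25, limma adjusted p = 0.0429). HAND1, a bHLH factor of mesoderm and trophoblast, had 5.31 and 5.37 in siSETD2 and 5.62 and 5.76 in siWDR5, against 7.31 and 7.25 in siNTC (-1.94 ± 0.10 and -1.59 ± 0.10), and it was also called lower in siEED (-0.81). Under the fold threshold, HAND1 was lower in siRNF2 (-0.54, limma adjusted p = 0.00381) and siEED+RNF2 (-0.52, 0.00431) as well. MSX2 fell in siWDR5 (-0.76 ± 0.06). It was lower under the fold threshold in siSETD2 (-0.57, limma adjusted p = 0.000409) and siEED (-0.38, 0.00275).

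Of 10 intracellular brakes, TGIF1, a SMAD co-repressor, rose in siEED, siRNF2 and siEED+RNF2 (0.77, 0.80 and 0.75, each ± 0.07). TGIF1 was also higher in siWDR5, under the fold threshold (0.43 ± 0.07, limma adjusted p = 0.00214). SKIL, another co-repressor, fell in siEED+RNF2 alone of the 5 (-0.72 ± 0.07), and it was also lower there than in siEED (-0.85, adjusted p = 0.00015) and than in siRNF2 (-0.72, 0.00034). SMAD6 fell in siWDR5 and siSETD2 (-0.65 each, ± 0.08), and without siSETD2 replicate 2 the siSETD2 value was -0.56, under the fold threshold. SMAD6 was lower in siRNF2 too, under that threshold (-0.38, limma adjusted p = 0.00625). Of 4 proprotein convertases, which cut ligand precursors, PCSK5 fell in siEED, siRNF2 and siEED+RNF2 (-0.65, -0.78 and -0.60, each ± 0.10) and PCSK6 in siSETD2 (-0.83 ± 0.07). The siEED+RNF2 call of PCSK5 was lost without siEED+RNF2 replicate 2 (-0.57), without siNTC replicate 1 (-0.57), after quantile normalization (-0.56) and with centring on all clusters (-0.56).

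Of 25 measured other ligands of the family, 2 were called higher in siEED, siEED+RNF2, siRNF2 and siWDR5, beside 3.15%, 4.77%, 4.82% and 2.86% of all clusters. None was called in siSETD2, where limma p before adjustment was under 0.05 for 3 higher and 4 lower genes. The 2 called ligands were INHBE, an activin subunit known from liver, and GDF15, a distant relative that signals through its own receptor. INHBE had 9.28 and 9.42 in siEED+RNF2, 8.83 and 8.84 in siEED, 9.71 and 9.56 in siRNF2, with 8.09 and 7.75 in siWDR5, against 5.50 and 5.40 in siNTC, so that it was 14.96-fold, 10.5-fold, 18.3-fold and 5.54-fold higher in that order. GDF15 had 8.84 and 8.74 in siEED+RNF2, 8.07 and 8.22 in siEED, 9.62 and 9.68 in siRNF2, with 6.60 and 6.67 in siWDR5, against 5.56 and 5.53 in siNTC. In siSETD2, GDF15 had 5.99 and 6.24, higher under the fold threshold (0.57, limma adjusted p = 0.00248). INHBE had 5.28 and 5.52 there (-0.05, limma adjusted p = 0.815). Of 13 other secreted antagonists, CHRDL1 fell in siWDR5 (-0.90 ± 0.09) and GREM1 fell in siSETD2 (-1.52 ± 0.07, adjusted p = 4.4e-06), both of them BMP inhibitors. GREM1 had 5.46 and 5.601 in siSETD2, against 7.07 and 7.04 in siNTC.

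**Figure D4:**
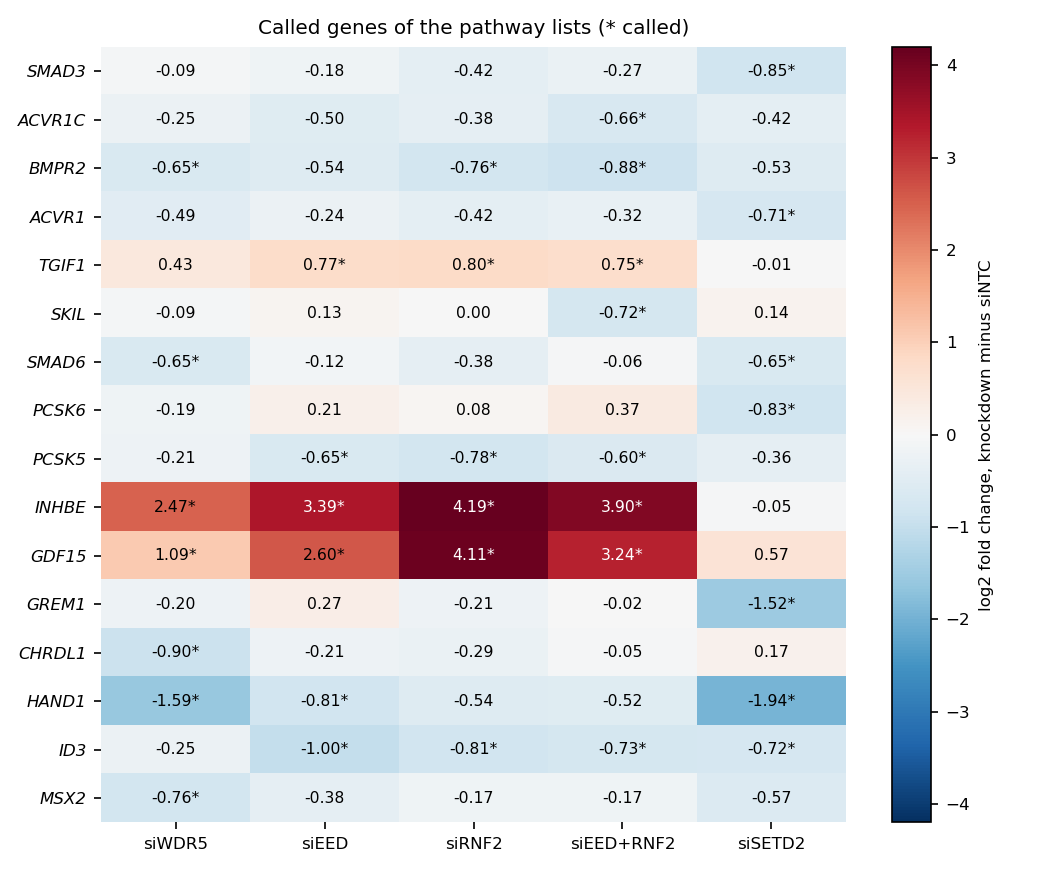
Log2 fold change, knockdown minus siNTC, of the pathway genes called in at least 1 knockdown (rows) in the 5 knockdowns (columns); colour gives the value printed in each cell and an asterisk marks a call. INHBE and GDF15 have the deepest red cells, 4.19 and 4.11 in siRNF2, and HAND1 the deepest blue, -1.94 in siSETD2.

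The genes most like FST, LEFTY2 and GDF3 were sought by Pearson correlation over the 6 condition means, among 3782 clusters that list 1 gene and were called in at least 1 knockdown. This is a description over 6 points that share the siNTC arrays. FST was most like SH3KBP1 (r = 0.999), AMOT (0.996) and CTH (0.994), and CTH, an enzyme of cysteine synthesis, had log2 fold changes of 1.38 in siEED, 1.495 in siEED+RNF2, 1.54 in siRNF2, 0.93 in siWDR5 and -0.43 in siSETD2. LEFTY2 was most like IGFBP5 (0.940), YPEL2 (0.926) and YPEL1 (0.921), and IGFBP5, a secreted binding protein of insulin-like growth factors, differed from siNTC by 1.99 in siEED and 1.55 in siEED+RNF2 and by 0.10 to 0.42 in the other 3. GDF3 was most like CXXC5 (0.999), DAB2 (0.995) and ST7 (0.989), and DAB2, an endocytic adaptor, differed from siNTC by -0.59 in siEED+RNF2, -0.80 in siEED and -0.79 in siRNF2. Unnamed open reading frames and RNA genes were passed over in these ranks.

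**Figure D5:**
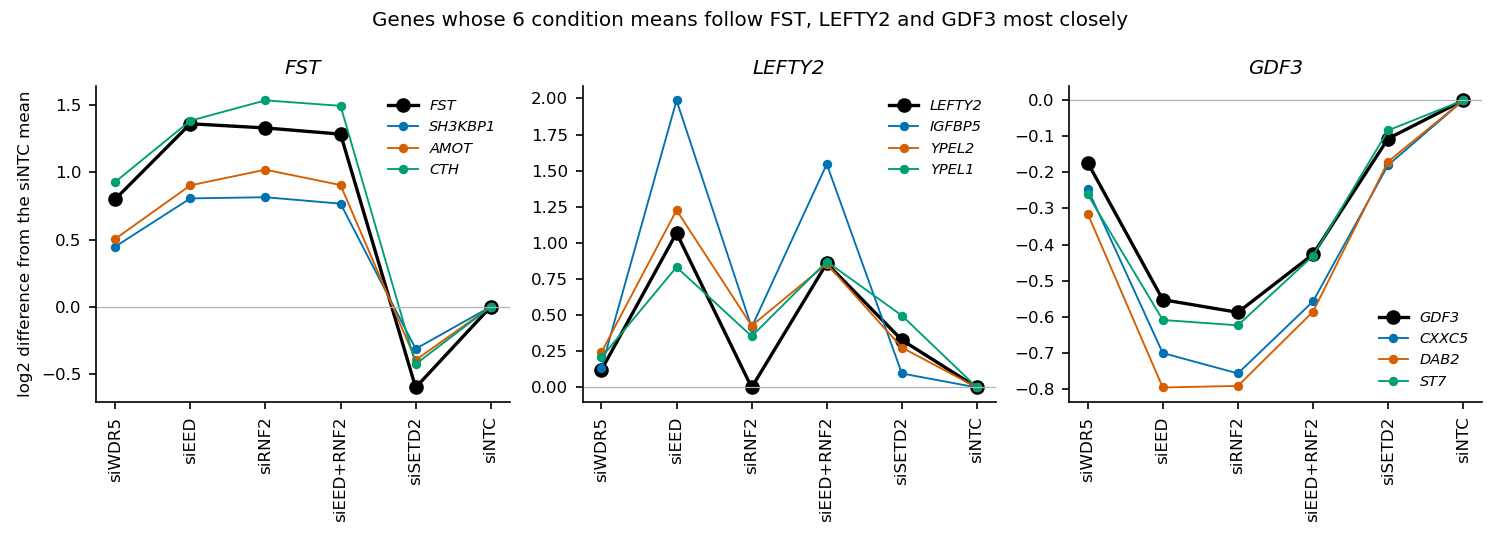
Difference of each condition mean from the siNTC mean (y axis, log2 units) for FST, LEFTY2 and GDF3 (black) and the 3 named genes whose means correlated most with each (colours), by condition (x axis). SH3KBP1, AMOT and CTH follow FST below 0 in siSETD2, IGFBP5 peaks with LEFTY2 in siEED and siEED+RNF2, and CXXC5, DAB2 and ST7 dip with GDF3 in siEED and siRNF2.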

How the data were processed

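The authors deposited log2 values for 33297 transcript clusters on 12 arrays in 1 table, of which 0 columns were left out. GCRMA and Partek are named in the submitters' processing notes, without versions (not given in the sources used here). Background was thus corrected and the arrays normalized before deposit, which fixes the balance of higher and lower values. Each array took cDNA from 250 ng of RNA. Clusters were named through the platform annotation, updated against RefSeq GRCh38.p14 by gene number.

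Condition means over all clusters and arrays were fitted with limma 3.58.1 in R 4.3.3 (6 residual degrees of freedom), with Benjamini-Hochberg adjustment over all clusters in each comparison. The fit was tested on simulated data. Calls needed an adjusted p under 0.05 and a fold of at least 1.5. The comparisons siWDR5 against siEED, siEED against siRNF2 and siWDR5 against siSETD2 were added after the data were seen. The 10 genes and all lists were chosen with earlier results of these data known. Named genes were the 10 genes, the siRNA targets, of each list up to 4 called genes that changed most, and the 3 closest patterns. TFAP2C, CGA, KDR, TBXT, ACTG2, DCN and CRIPTO3 were named after their values were seen.

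Alternatives changed the arrays fitted, moderation, scaling, filters, thresholds and reference, used the replicate number as a block, or left out 1 array. The number of arrays limits the precision. Plots were made in Python 3.11.15 (matplotlib 3.10.9).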

Additional observations from a re-analysis of the deposited data

Results flagged for a closer look

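These results were picked out because an effect differed between conditions in a direct test with limma. Among the knockdowns, LEFTY2 differed between siEED and siRNF2 (1.07 log2 units, adjusted p = 0.00426), between siEED+RNF2 and siRNF2 (0.86, 0.00405) and between siWDR5 and siEED (-0.95, 0.00251). FST differed between siWDR5 and siSETD2 (1.40, adjusted p = 9.8e-06), with every siWDR5 array above and every siSETD2 array below the siNTC arrays. The interaction of siEED and siRNF2 was -1.41 for FST (adjusted p = 8.04e-05) and 0.71 for GDF3 (0.00117). A formal test for an outlying array within a condition needs larger groups than pairs and was not run.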

How the results depend on the processing

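With the replicate number as a block (replicate block), the number of the 10 genes called was the same in every comparison, for example 2 in siEED and 1 in siWDR5. The numbers did not pair the arrays: same-numbered arrays deviated together with r from -0.08 to 0.12, and 1 of 15 pairs was over 0.1. Counts of called genes moved as follows, and where the construction of the setting does not show it, the cause was not tested. The shares of all clusters called under the same settings are not given beside these counts. Without a fold threshold more clusters pass by construction, so the counts describe the 10 genes alone. Without a fold threshold the counts were 4 in siEED+RNF2, 3 in siEED, 4 in siRNF2, 2 in siWDR5, 3 for siEED+RNF2 against siRNF2, 5 for siWDR5 against siEED and 2 for siEED against siRNF2. At a fold of at least 2 they were 0 in siWDR5, 1 in siRNF2, 1 in siEED+RNF2, 0 in siSETD2, 0 for siEED+RNF2 against siRNF2, 1 for the interaction and 0 for siWDR5 against siEED. Quantile normalization gave 1 in siRNF2, and centring on the median of all clusters gave 1 in siRNF2 and 0 in siSETD2. With the mean of the other knockdowns as the reference there were 0 in siWDR5, where FST turned to -0.0436, and 1 in siRNF2. Leaving out 1 array gave 1 to 2 in siRNF2, 0 to 1 in siSETD2 and 1 to 2 for siWDR5 against siEED, where FST passed the fold threshold without siEED replicate 1 (-0.61) or siWDR5 replicate 1 (-0.62). GDF3 in siEED was called with arrays centred on the clusters that list a gene (-0.63) or without siEED replicate 2 (-0.60), and LEFTY1 in siEED+RNF2 was called without siEED+RNF2 replicate 2 (-0.60, adjusted p = 0.0446). All other direction changes were of uncalled values, the largest of them LEFTY1 (-0.21) and INHBA (-0.16), both in siWDR5. With centring on the clusters that list a gene, NODAL (-0.0392), LEFTY2 (-0.11), TDGF1 (-0.0150) and CER1 (-0.0670) turned in siRNF2, BMP4 (-0.0334) and BMP7 (-0.0639) in siEED, and BMP7 (-0.0313) in siEED+RNF2. CER1 turned with quantile normalization in siEED (0.0622) and siEED+RNF2 (0.0675), and with centring on all clusters in siEED+RNF2 (0.0300). With 1 array left out, values ranged across 0 for NODAL in siSETD2 (-0.12 to 0.25), LEFTY1 in siWDR5 (-0.43 to 0.0105), LEFTY2 in siWDR5 (-0.0944 to 0.34) and siRNF2 (-0.22 to 0.22), TDGF1 in siSETD2 (-0.11 to 0.0106), INHBA in siWDR5 (-0.33 to 0.00437), CER1 in siEED (-0.14 to 0.0466), siRNF2 (-0.0142 to 0.0981), siEED+RNF2 (-0.0744 to 0.0513) and siSETD2 (-0.0243 to 0.13), BMP4 in siEED (-0.00673 to 0.0949), and BMP7 in siWDR5 (-0.0121 to 0.18), siEED (-0.0802 to 0.11) and siEED+RNF2 (-0.0524 to 0.14). Of 698 values of single genes under the alternatives, 657 kept their direction and side of the threshold. The 2 arrays per condition limit all of these values, and dim clusters such as NODAL and CER1 give little range for a fall.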
